A study of Mus musculus with 8 samples.

Results

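The guanylate-binding proteins (GBPs) and the IRGM proteins are GTPases whose genes are switched on by interferon-gamma. The 10 genes described here are 7 genes of the GBP family, Gbp2, Gbp3, Gbp4, Gbp5, Gbp6, Gbp7 and Gbp9, and 3 genes of the IRGM family, Irgm1, Irgm2 and Igtp. They were taken by gene symbol from a table of 12171 genes measured in the quadriceps (QUAD) muscle of mice, and all 10 had a row. They were chosen by family and on earlier values of the same comparison, the levels in treated and control mice, so their levels and fold changes are given as a description, with no test.

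All mice were male C57BL/6J mice, 6 weeks old at delivery, that received daily subcutaneous D-galactose (D-gal) at 100 mg/kg for 12 weeks after 1 week of acclimation. D-gal is a sugar used to induce features of ageing. The 4 D-gal + PBS mice were injected with PBS in the QUAD, tibialis anterior and gastrocnemius muscles, and the 4 D-gal + MSCs mice received MSCs in PBS in the same muscles. MSCs are mesenchymal stromal cells, taken from human umbilical cord and given at 1000000 cells per mouse every 7 days, 6 times. Both groups were exposed to D-gal, so the comparison is of cells against vehicle in that model and holds no mice without D-gal. The injected cells were human and the reads were aligned to the mouse genome.

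RNA was sequenced as 1 library per mouse, with total counts of 34912348 to 39356399 in D-gal + PBS mice and 32772221 to 40057968 in D-gal + MSCs mice. Levels are counts per 1000000 (CPM) of the library after TMM scaling, which corrects for library composition. All 9 markers of the muscle fibre had a row and summed to 82002 to 129470 CPM, as the labelled tissue, skeletal muscle, would have. The share of counts from mitochondrially encoded genes was 13.9% to 18.6% in D-gal + PBS mice and 22.6% to 36.6% in D-gal + MSCs mice. Single mice are written PBS 1 to PBS 4 and MSCs 1 to MSCs 4. MSCs 4 stood apart, with the top of that range and the lowest scaling factor, 0.760, and some results are therefore also given without it.

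Interferon-gamma binds a receptor of the chains Ifngr1 and Ifngr2 and signals through the kinases Jak1 and Jak2 to GAS elements in the promoters of target genes. One of those targets, Irf1, and the ISGF3 complex that holds Irf9 act through the interferon-stimulated response element (ISRE). GBPs assemble on the membranes of vacuoles and bacteria, and the IRGM proteins sit on the cell's own membranes, where in mouse cells they keep effector GTPases of the related IRG family from acting.

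Upstream sequence was looked up for the members because they share an inducer. The RefSeq table of the build GRCm38.p6 held a promoter entry for 7 of the 10 genes, and the 250 bases before each start were searched on both strands for an ISRE-type motif, GAAANNGAAA, and on 1 strand for a GAS motif, TTCNNNGAA, which is its own reverse complement. The stretches that hold the ISRE-type match nearest the start are shown for all 7 genes, 5′ to 3′ on the strand of the gene, with every match to either motif in capitals. An ISRE-type match on the opposite strand reads as TTTCNNTTTC, and matches that overlap run together. Gbp2 is at chr3:142620589-142620628 on the plus strand, Gbp3 at chr3:142559984-142560029 plus, Gbp5 at chr3:142496754-142496793 plus, Gbp7 at chr3:142530215-142530307 plus, Irgm1 at chr11:48871421-48871465 minus, Irgm2 at chr11:58214887-58214937 plus and Igtp at chr11:58199496-58199546 plus.
Gbp2: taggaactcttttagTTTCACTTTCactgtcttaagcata
Gbp3: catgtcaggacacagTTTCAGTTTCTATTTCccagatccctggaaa
Gbp5: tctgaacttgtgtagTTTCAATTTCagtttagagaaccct
Gbp7: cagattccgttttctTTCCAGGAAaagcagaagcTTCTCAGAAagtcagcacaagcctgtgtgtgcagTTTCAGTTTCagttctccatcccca
Irgm1: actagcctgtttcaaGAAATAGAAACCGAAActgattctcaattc
Irgm2: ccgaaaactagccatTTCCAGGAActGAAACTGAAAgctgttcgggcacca
Igtp: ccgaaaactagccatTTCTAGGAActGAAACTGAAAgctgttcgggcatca

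The ISRE-type motif was found in 7 of these 7 genes and in 3.09% of the 9385 tested genes that have a promoter entry. The GAS motif was found in 4 of the 7, Gbp5, Gbp7, Irgm2 and Igtp, and in 7.15% of the 9385. Both motifs together were found in those 4 genes and in 0.416% of the 9385. Gbp3 has a second promoter entry that held neither motif. The stretches of Irgm2 and Igtp are identical at 49 of 51 bases and carry a GAS match directly before the ISRE-type match, while in Gbp7 a pair of GAS matches lies farther from the start than the ISRE-type match. A match is a description of letters and no measure of binding.

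**Figure D1:**
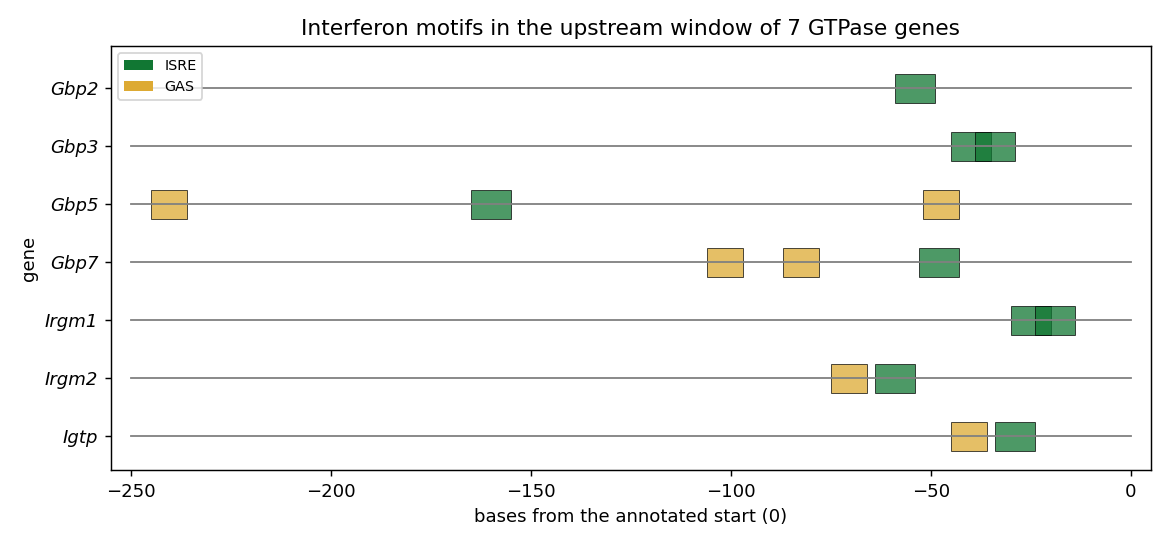
Position of each motif match, in bases before the annotated start at 0 (x axis), for 7 GTPase genes (y axis), with ISRE-type matches in green and GAS matches in yellow. In 6 of the 7 genes the ISRE-type match lies within 64 bases of the start, and in Gbp5 it lies 165 to 156 bases before it.

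Every GTPase gene had a higher mean level in D-gal + MSCs mice than in the controls. Fitted by edgeR, the log2 fold change ran from 0.69 for Gbp9 to 1.58 for Gbp6, with a median of 1.15 over the 10 genes beside a median of -0.003 over all 12171 genes, of which 49.5% had a positive value. In 9 of the 10 genes the lowest D-gal + MSCs mouse was above the highest D-gal + PBS mouse, a pattern found in 3.09% of all genes (the opposite pattern, in 3.19%), and Gbp9 was the exception. Because this comparison was in view when the genes were chosen, nothing is read from these counts. In whole muscle, a change in the number of cells of a type and a change in RNA per cell cannot be told apart. Without MSCs 4 the median was 0.84.

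**Figure D2:**
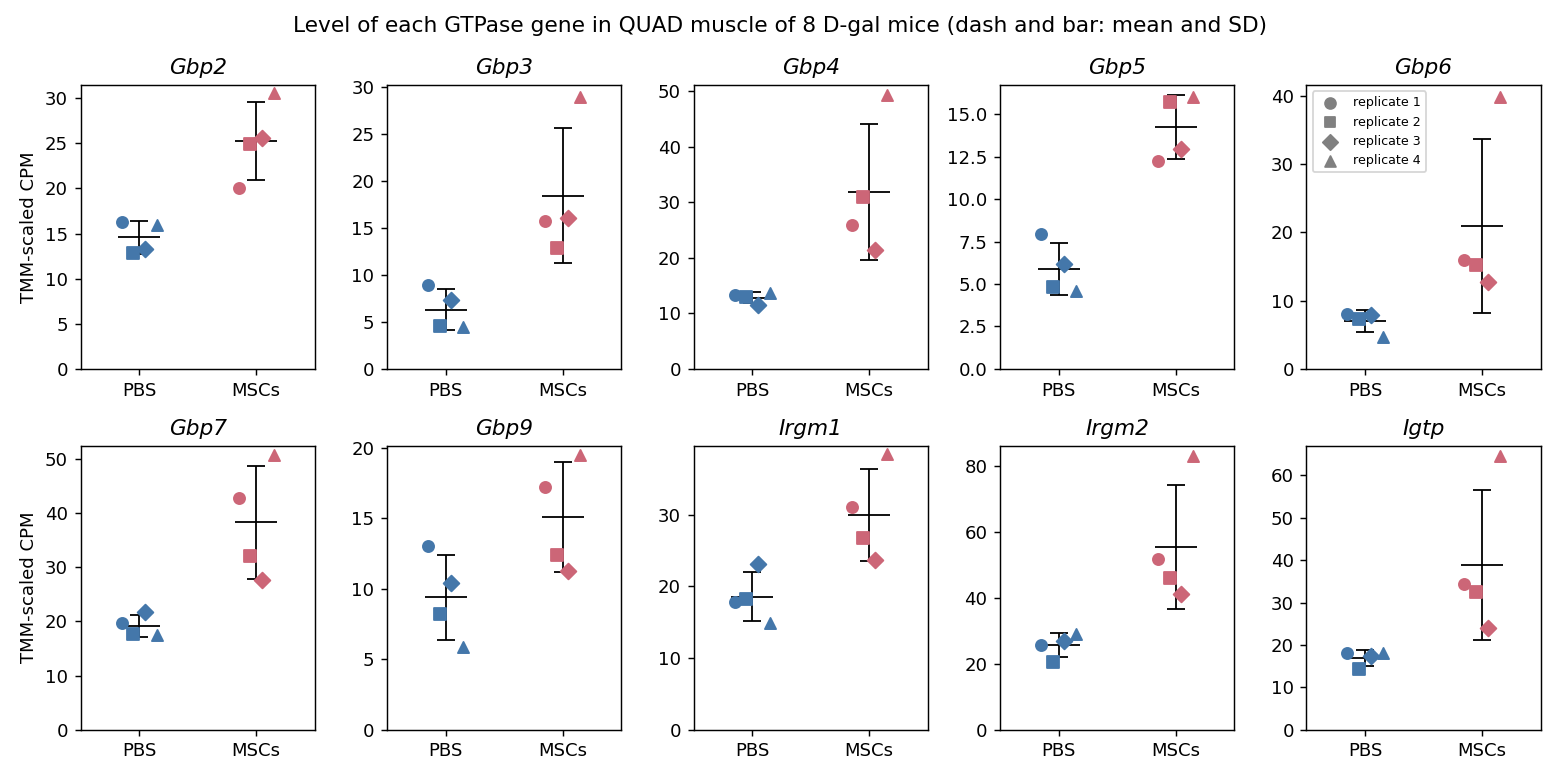
Level of each of the 10 GTPase genes in TMM-scaled CPM (y axes, each from 0) in 4 D-gal + PBS mice (blue) and 4 D-gal + MSCs mice (red), with marker shape giving the replicate and a dash and bar the mean and SD. The groups are separate in 9 panels and overlap for Gbp9, and MSCs 4 is the highest D-gal + MSCs mouse in all 10.

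Among the GBPs on chromosome 3, Gbp2, which in mouse cells is recruited to the vacuole of Toxoplasma, measured 16.3, 12.8, 13.2 and 15.9 CPM in PBS 1 to PBS 4 and 20.0, 24.9, 25.6 and 30.6 CPM in MSCs 1 to MSCs 4. The groups did not overlap, and the spread within each was small, with a coefficient of variation of 12.2% and 17.0%. Its fitted log2 fold change was 0.80 (standard error 0.15).

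Gbp3 measured 8.92, 4.60, 7.31 and 4.43 CPM in D-gal + PBS mice and 15.8, 12.8, 16.1 and 29.0 CPM in D-gal + MSCs mice. MSCs 4 was high and the other D-gal + MSCs mice lay close together, all above the highest D-gal + PBS mouse. Its log2 fold change of 1.54 (standard error 0.30) was the highest on that chromosome, and it was 1.24 without MSCs 4.

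Gbp5, which promotes assembly of the NLRP3 inflammasome in mouse macrophages, measured 7.95, 4.85, 6.19 and 4.56 CPM in D-gal + PBS mice and 12.3, 15.7, 12.9 and 16.0 CPM in D-gal + MSCs mice. No D-gal + MSCs mouse stood apart, with MSCs 4 at 1.17 times the mean of the other D-gal + MSCs mice. This gave a log2 fold change of 1.27 (standard error 0.20).

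Gbp7, linked in mouse cells to assembly of the NADPH oxidase, measured 19.6, 17.6, 21.8 and 17.6 CPM in D-gal + PBS mice and 42.8, 32.2, 27.7 and 50.8 CPM in D-gal + MSCs mice. The D-gal + PBS mice lay within a narrow range, and the D-gal + MSCs mice spread from just above it to far above it. Its log2 fold change came to 1.00 (standard error 0.18).

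Of the GBPs on chromosome 5, Gbp4 was the most even in D-gal + PBS mice, at 13.3, 13.0, 11.5 and 13.6 CPM with a coefficient of variation of 7.12%. In D-gal + MSCs mice it measured 25.9, 30.9, 21.4 and 49.2 CPM. Every D-gal + MSCs mouse was above every D-gal + PBS mouse. The log2 fold change was 1.31 (standard error 0.23), and 1.02 without MSCs 4.

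Gbp6 measured 8.06, 7.26, 7.93 and 4.62 CPM in D-gal + PBS mice and 15.9, 15.1, 12.7 and 39.8 CPM in D-gal + MSCs mice. MSCs 4 was 2.72 times the mean of the other D-gal + MSCs mice, the highest such ratio of the 10 genes, and those other mice still lay above all D-gal + PBS mice. On the log2 scale the fold change was 1.58 (standard error 0.37) with all mice and 1.07 without MSCs 4.

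Gbp6 shares the most sequence with other genes, and how reads were divided among them is not given in the sources used here. In the GENCODE vM21 transcripts, 70.6% of its 50-base stretches also occur in another gene, 65.0% in Gm43302 and 46.0% in Gbp10, and both of those have rows. Gm43302 measured 4.91, 0.00, 4.92 and 3.18 CPM in D-gal + PBS mice and 12.6, 12.4, 9.84 and 34.3 CPM in D-gal + MSCs mice, with MSCs 4 again the highest. The 3 genes summed measured 13.8, 9.82, 13.5 and 9.37 CPM against 30.6, 29.2, 23.1 and 81.1 CPM, so the groups were separate for the sum as well.

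Gbp9 measured 13.0, 8.19, 10.4 and 5.89 CPM in D-gal + PBS mice and 17.2, 12.4, 11.3 and 19.5 CPM in D-gal + MSCs mice. PBS 1 lay above MSCs 2 and MSCs 3, so the groups overlapped. With this overlap the fitted log2 fold change was 0.69 (standard error 0.25).

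The IRGM genes lie on chromosome 11. Irgm1, a regulatory GTPase also tied to autophagy in mouse macrophages, measured 17.8, 18.3, 23.2 and 14.9 CPM in D-gal + PBS mice and 31.1, 26.7, 23.7 and 38.5 CPM in D-gal + MSCs mice. The gap between the groups was narrow, from 23.2 to 23.7 CPM, and the mice at its edges were PBS 3 and MSCs 3. That left a log2 fold change of 0.69 (standard error 0.18).

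Irgm2, another of the regulatory GTPases, measured 25.8, 20.6, 26.9 and 29.1 CPM in D-gal + PBS mice and 51.6, 45.9, 41.2 and 82.9 CPM in D-gal + MSCs mice. The lowest D-gal + MSCs mouse was well above the highest D-gal + PBS mouse, and MSCs 4 was again far above the rest. This corresponds to a log2 fold change of 1.11 (standard error 0.21), and 0.85 without MSCs 4.

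Igtp, also called Irgm3, measured 18.1, 14.2, 17.4 and 18.1 CPM in D-gal + PBS mice and 34.3, 32.4, 24.0 and 64.5 CPM in D-gal + MSCs mice. The groups were separate, and MSCs 4 was 2.13 times the mean of the other D-gal + MSCs mice. As a log2 fold change this was 1.19 (standard error 0.27), and 0.83 without MSCs 4. Igtp and Irgm2, whose upstream stretches are nearly the same, also overlap in their exons, and 11.8% of the 50-base stretches of Igtp and 7.77% of those of Irgm2 occur in another gene, so some of their reads may be shared. For the other 7 genes that share was 0.31% to 12.7%, with Gbp7 at the top through Gm43802.

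**Figure D3:**
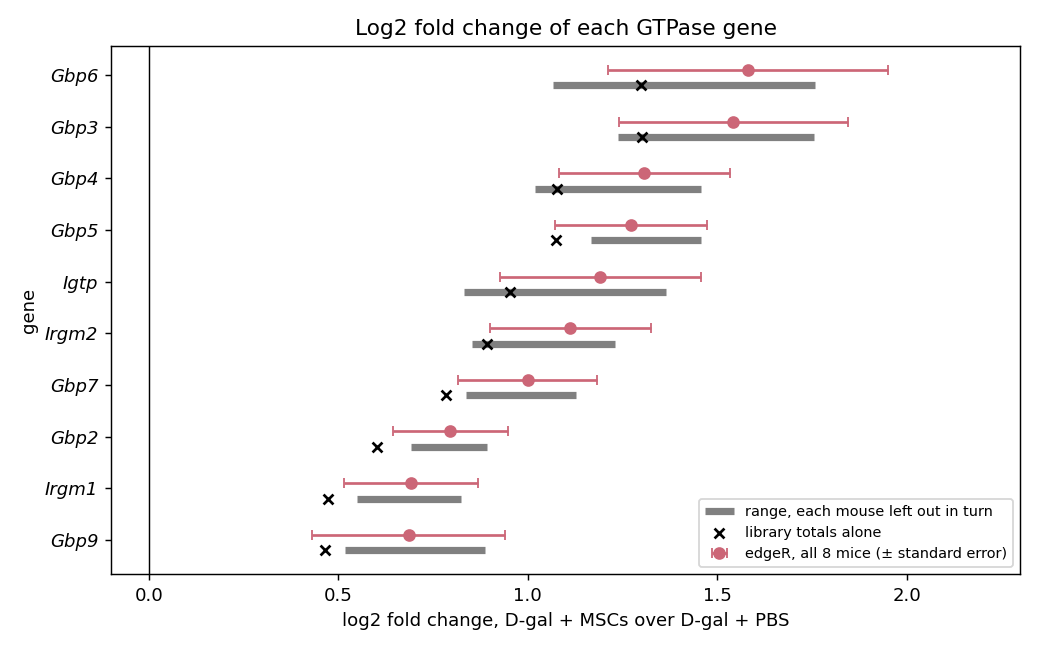
Log2 fold change of D-gal + MSCs over D-gal + PBS (x axis) for each GTPase gene (y axis), as red points with standard error for all 8 mice, grey bars for the range when each mouse was left out in turn and crosses for library totals in place of TMM. All values are above 0, from 0.46 for Gbp9 on library totals to 1.76 for Gbp6 and Gbp3 with 1 mouse left out.

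By family, the median log2 fold change was 1.27 over the 7 GBP genes and 1.11 over the 3 IRGM genes. By location it was 1.14 for the 4 genes on chromosome 3, 1.31 for the 3 on chromosome 5 and 1.11 for the 3 on chromosome 11. The values of the 3 locations overlap, and the differences between them were not tested.

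Levels of different genes can be compared only per length, and for that the CPM was divided by the kilobases of the longest coding transcript. No correction was made for sequence shared between genes. The place of Gbp6 in both groups therefore depends on how its shared reads were divided, which is not known. In D-gal + PBS mice the IRGM genes led, with Igtp at 8.40 ± 0.92, Irgm1 at 8.22 ± 1.52 and Irgm2 at 7.26 ± 1.02 CPM per kilobase (SD, n = 4), and neither step between neighbours among them exceeded the larger SD of the pair. Gbp2 followed at 5.79 ± 0.71 and Gbp7 at 3.41 ± 0.36, each below the gene before it by more than the larger SD of the pair. Gbp4, Gbp6, Gbp3, Gbp9 and Gbp5 came last, from 2.83 down to 1.93 CPM per kilobase, with no step between neighbours beyond the spread.

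In D-gal + MSCs mice the same 4 genes led, in the order Igtp at 19.2 ± 8.76, Irgm2 at 15.7 ± 5.34, Irgm1 at 13.3 ± 2.85 and Gbp2 at 10.1 ± 1.71 CPM per kilobase (SD, n = 4). Only the step from Irgm1 to Gbp2 exceeded the larger SD among them. In both groups that SD is the spread between mice, and the order of the genes within each mouse was not compared. Gbp6, Gbp4, Gbp3 and Gbp7 lay together between 8.03 and 6.83, and Gbp5 at 4.66 and Gbp9 at 3.45 were the lowest, each a step beyond the spread below the gene before it.

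Summed over the 10 genes, the level was 149, 121, 146 and 129 CPM in D-gal + PBS mice and 267, 249, 217 and 421 CPM in D-gal + MSCs mice, or 136 ± 13.3 against 288 ± 90.7 CPM (SD, n = 4), a ratio of 2.12. MSCs 4 was the highest of its group in 10 of 10 genes, as in 29.6% of all genes, and MSCs 3 the lowest in 7 of 10, as in 27.5% of all genes. In the D-gal + PBS group the order was less uniform. PBS 1 was the highest in 6 genes, as in 22.8% of all genes. PBS 4 was the lowest in 6, as in 32.1% of all genes, and the highest in 2, as in 31.4%.

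The lead of MSCs 4 depended on the scaling. In CPM of the library totals, without TMM, it was the highest D-gal + MSCs mouse in 5 of 10 genes, Gbp3, Gbp4, Gbp6, Irgm2 and Igtp, and in 6.14% of all genes, and the groups were separate in 8 of 10, with Gbp9 and Irgm1 overlapping, against 1.27% of all genes. That library also had the highest mitochondrial share, and the part of that share in these levels was not tested. With the mitochondrially encoded genes left out of the fit, the median log2 fold change over the 10 genes was 1.15, as with them. Library sizes and TMM factors were computed anew in that fit, so it is no test of that part.

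**Figure D4:**
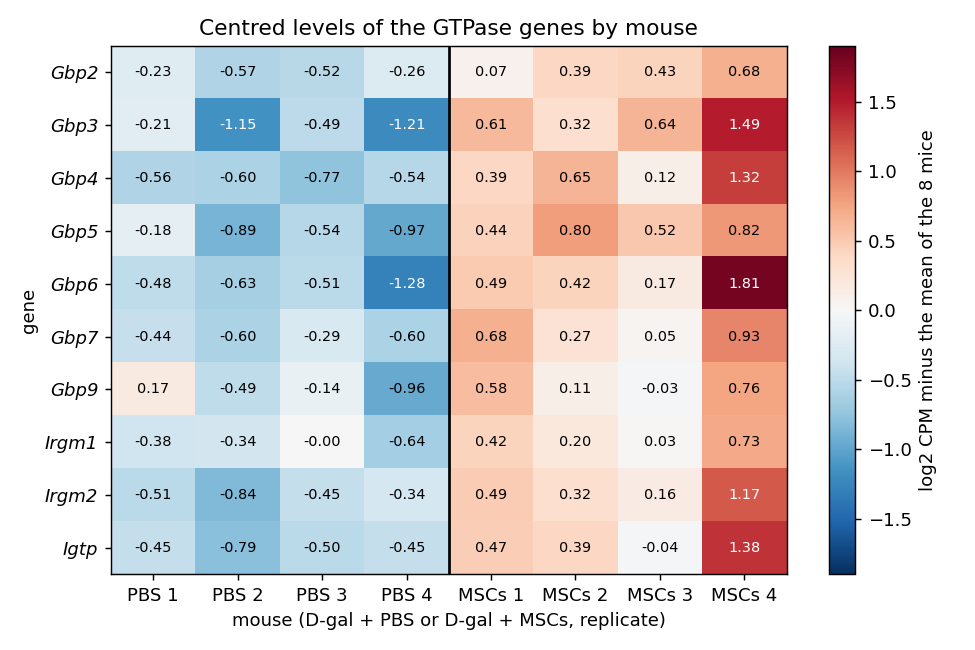
Log2 CPM of each GTPase gene (rows) in each mouse (columns), as the difference from the mean of the 8 mice, with blue below and red above that mean and the black line between the groups. MSCs 4 is the reddest column, reaching 1.81 for Gbp6, and Gbp9 in PBS 1 is above the mean, at 0.17.

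The genes whose pattern over the 8 libraries was nearest the mean of the 10 GTPase genes were looked for by the root mean square difference in centred log2 CPM, which a gene level in every library would place at 0.604. The nearest were mt-Nd4 at 0.132, mt-Atp8 at 0.156 and Nlrc5 at 0.176, followed by mt-Nd5, the unnamed assembled locus MSTRG.4895, mt-Cytb, Acot11 and Bora. Thus 4 of the 8 were mitochondrially encoded genes, which also differ between the groups, and Nlrc5, an activator of MHC class I genes, was the only one of the 8 in the interferon lists. The GTPase genes themselves lay between 0.145 for Gbp7 and 0.325 for Gbp6.

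After centring within each group, which removes the group difference, 7 of the 8 nearest were 2510002D24Rik at 0.0605, Tbce, Nadk2, A130010J15Rik, Gss, Evc and Miga1, with 0.270 for a level gene. The GTPase genes themselves lay between 0.133 for Gbp7 and 0.267 for Gbp6 from their own mean. Within groups Gbp6 was thus hardly nearer to that mean than a level gene, and the next farthest was Gbp2 at 0.241. This measure also grows when a gene moves in the same direction by more. Gbp6 had MSCs 4 highest and MSCs 3 lowest, as most of the 10 genes did. These orders rest on 8 libraries, of which MSCs 4 lay farthest from its group mean, by 0.57 averaged over the 10 genes.

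The rest of the pathway was followed in 7 gene lists written from general knowledge, with 125 of 157 genes measured. At an adjusted p under 0.05, edgeR called 0 of the 125, as it called 0% of all genes in either direction, while 25 were higher and 4 lower at an unadjusted p under 0.05, where 5.64% and 5.11% of all genes were. DESeq2 called 12 higher and 0 lower at an adjusted p under 0.05, where it called 1.4% and 1.06% of all genes. These genes come from the same libraries as the GTPase genes and are no separate evidence about them.

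Of the ligand, receptor and signal genes, 2 of 16 measured genes were higher and 2 lower at an unadjusted p under 0.05, and the median log2 fold change was 0.05. Interferon-gamma itself, Ifng, had no row, so its level was not analysed here. The receptor chain Ifngr1 was at 44.5 CPM or above in every D-gal + PBS mouse and measured 33.6, 36.4, 42.4 and 27.9 CPM in D-gal + MSCs mice, so the groups did not overlap, with a log2 fold change of -0.43 (standard error 0.13, edgeR adjusted p = 0.263). Thus the receptor chain was lower where the GTPase genes were higher, without passing the test.

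Irf1 measured 13.6 to 17.8 CPM in D-gal + PBS mice and 18.5 to 22.0 CPM in D-gal + MSCs mice, with a log2 fold change of 0.41 (standard error 0.13, edgeR adjusted p = 0.269).

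The other core signal genes were near level, with log2 fold changes of -0.13 for Ifngr2, -0.07 for Jak1, 0.09 for Jak2 and 0.13 for Irf9. The last pair changed sign on library totals, and Jak1 did without MSCs 3. Socs3, an inhibitor of JAK kinases, reached -1.13 on the log2 scale (standard error 0.45, edgeR adjusted p = 0.414), a value that rested on PBS 2, at 13.4 CPM against 3.16 to 4.62 CPM in the other D-gal + PBS mice. Without that mouse it was -0.46.

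Among the other interferon-inducible and related GTPases, 4 of 11 measured genes were higher and 0 lower at an unadjusted p under 0.05, with a median log2 fold change of 0.38. Iigp1, an effector of the IRG family that the IRGM proteins restrain, measured 19.9, 13.5, 13.9 and 16.5 CPM in D-gal + PBS mice and 44.2, 35.8, 26.0 and 68.8 CPM in D-gal + MSCs mice. It shared the pattern of the IRGM genes, with separate groups, MSCs 4 highest and MSCs 3 lowest, and its log2 fold change was 1.45 (standard error 0.27, edgeR adjusted p = 0.0949). The related effectors Tgtp1 and Tgtp2, a near-identical pair whose reads may be shared, had log2 fold changes of 0.95 (standard error 0.26) and 1.34 (standard error 0.41), with edgeR adjusted p = 0.22 and 0.279. Without MSCs 4 the value was 1.15 for Iigp1, 0.65 for Tgtp1 and 0.88 for Tgtp2. DESeq2 called these 3 effectors higher, and Gvin1, a very large interferon-inducible GTPase, was not called, at 0.38 (standard error 0.17).

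Of the other interferon-gamma response genes, 12 of 42 were higher and 2 lower at an unadjusted p under 0.05, with a median of 0.23. In all, 30 of the 42 had a positive log2 fold change. The 2 lower genes were Serping1 at -0.66 (standard error 0.23) and Ifi30 at -0.58 (standard error 0.20). The MHC class II genes H2-Aa, H2-Ab1, H2-Eb1 and H2-DMa and the related Cd74 were negative too. They ran from -0.51 for H2-Aa to -0.21 for Cd74, with none past that p. Cd274, the immune checkpoint ligand PD-L1, measured 8.44, 5.43, 6.11 and 5.09 CPM against 15.3, 15.8, 15.3 and 23.7 CPM, so the groups were separate, with a log2 fold change of 1.48 (standard error 0.21, edgeR adjusted p = 0.0512). Nlrc5 measured 2.33 to 2.54 CPM against 4.24 to 6.08 CPM, with a log2 fold change of 1.03 (standard error 0.22, edgeR adjusted p = 0.117). The chemokines Cxcl9 and Cxcl10, which draw T cells, had log2 fold changes of 1.17 (standard error 0.30) and 2.31 (standard error 0.67), and Cxcl10 was low, at 0.05 to 1.09 CPM against 1.57 to 2.38 CPM. Without MSCs 4 the value of Cxcl9 was 0.78, and without PBS 4 that of Cxcl10 was 3.47. Cxcl10 reached 1 CPM in only 1 D-gal + PBS mouse and is in the table through the D-gal + MSCs mice, so its fold change and call follow in part from that filter. DESeq2 called these 4 genes and Apol6.

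Of the antiviral effectors best known from type I interferon, 7 of 35 were higher and 0 lower at an unadjusted p under 0.05, with a median of 0.31. Rsad2, which encodes the antiviral protein viperin, measured 5.79, 3.32, 4.32 and 2.41 CPM against 12.5, 10.8, 18.0 and 9.60 CPM, with a log2 fold change of 1.69 (standard error 0.28, edgeR adjusted p = 0.0756). Here MSCs 4 was the lowest mouse of its group and MSCs 3 the highest, the reverse of their places among the GTPase genes. Ifit3 had 1.09 (standard error 0.23), Ifi44 1.11 (standard error 0.33) and Parp10 0.60 (standard error 0.17), with edgeR adjusted p = 0.123, 0.237 and 0.23. DESeq2 called Rsad2, Ifit3, Ifi44 and Ifit3b.

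None of the genes that act beside the GTPases passed a test in edgeR with all mice, and DESeq2 called none of them. DESeq2 gave no adjusted p for Aim2 and Casp1, so it could not call these genes. In the list of inflammasome and pyroptosis genes, where some GBPs act, 4 of 13 were measured and 0 were past an unadjusted p of 0.05. The values were 1.09 (standard error 0.54) for the DNA sensor Aim2, 0.24 for the pore protein Gsdmd, and 0.30 and 0.14 for the caspases Casp1 and Casp4. All 4 genes were low, with means of 0.538 to 4.86 CPM, and their standard errors were 0.29 to 0.57. Among D-gal + PBS mice, Aim2 reached 1 CPM only in PBS 1, and it is in the table mainly through D-gal + MSCs mice. Its fold change thus follows in part from the filter of at least 1 CPM in at least 4 libraries.

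The ATG8 conjugation system, which in mouse cells helps to place GBP and IRG proteins on the vacuole, had all 11 genes measured, 0 past an unadjusted p of 0.05 and a median of -0.03. Its extremes by p were Atg10 at 0.45 (standard error 0.29), Gabarapl1 at 0.22 (standard error 0.14), Atg12 at -0.12 (standard error 0.14) and Atg16l1 at -0.08 (standard error 0.13). Atg10 was 0.12 without MSCs 4. The prenylation enzymes, which attach a lipid to the CaaX motif of proteins such as Gbp2 and Gbp5 or process that end afterwards, had all 6 genes measured, 0 past that p and a median of -0.10. They included Rce1 at -0.31 (standard error 0.23), Zmpste24 at -0.12 (standard error 0.11), Fntb at -0.10 (standard error 0.16) and Icmt at -0.10 (standard error 0.16). DESeq2 called 0 genes in these 3 lists at an adjusted p under 0.05, with no adjusted p for Aim2 and Casp1.

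**Figure D5:**
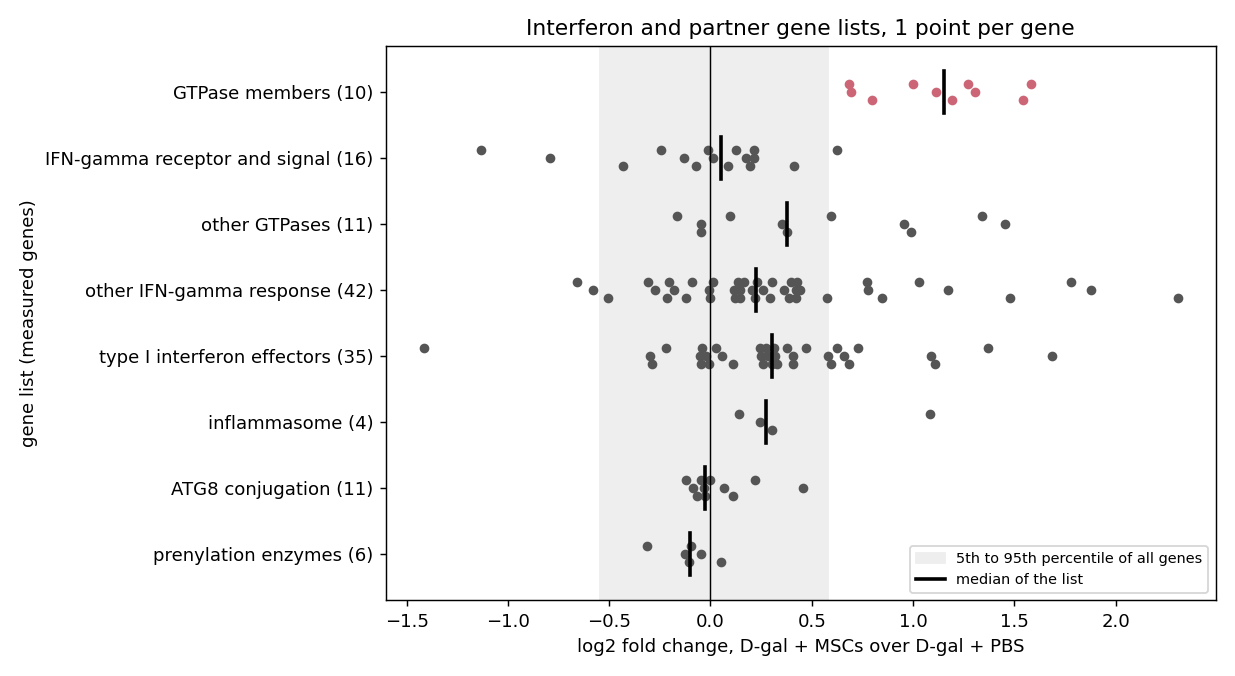
Log2 fold change of D-gal + MSCs over D-gal + PBS (x axis), 1 point per measured gene, for the 10 GTPase genes in red and 7 interferon and partner gene lists in grey (y axis, number of genes in brackets), with black ticks for medians and shading for the 5th to 95th percentile of all genes. The GTPase genes have a median of 1.15, and the list medians run from -0.10 for the prenylation enzymes to 0.38 for the other GTPases.

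GBP and IRGM genes are expressed in many cell types, among them macrophages and endothelial cells, so marker genes are given beside their levels. All 12 macrophage markers had rows, and their summed level was 112 to 183 CPM in D-gal + PBS mice and 66.5 to 169 CPM in D-gal + MSCs mice. Of these 12, 11 had a negative log2 fold change and 3 were lower at an unadjusted p under 0.05 in edgeR. The highest D-gal + MSCs mouse for these markers, at 169 CPM, was MSCs 3, which was the lowest for most of the GTPase genes, and MSCs 4 was at 73.2 CPM.

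The log2 fold change was positive for all 7 endothelial markers (median 0.38). Their summed level was 288 to 579 CPM in D-gal + PBS mice and 431 to 786 CPM in D-gal + MSCs mice, and 3 of 7 were higher at an unadjusted p under 0.05. For these markers too, MSCs 3 was the highest D-gal + MSCs mouse, at 786 CPM. MSCs 4, the highest for every GTPase gene, was the lowest, at 431 CPM. The 15 T and NK cell markers, 4 B cell markers and 5 neutrophil markers had no rows in the table, which lists only genes with at least 1 CPM in at least 4 libraries. T cell genes outside these lists, such as Cd247 and Cd28, did have rows. Of the dendritic cell markers, 1 of 5 had a row, at 14.0 to 21.1 CPM in D-gal + PBS mice and 7.15 to 16.2 CPM in D-gal + MSCs mice. No marker in the macrophage or endothelial list was at 0 in any library. Fibroblast markers summed to 705 to 1430 CPM in D-gal + PBS mice and 495 to 1038 CPM in D-gal + MSCs mice, and erythroid markers to 178 to 571 and 37.7 to 222 CPM. All 5 fibroblast markers had a negative log2 fold change (median -0.56), and 3 were lower at an unadjusted p under 0.05 in edgeR. All 4 erythroid markers were negative too (median -1.37), with 0 past that p. The 3 adipocyte markers with rows summed to 3.84 to 71.8 and 0.0765 to 8.38 CPM, with Adipoq and Plin1 at 0 in at least 1 library. All 3 were negative, with 0 past that p. The part of these cell types in the levels of the GTPase genes was not tested.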

How the data were processed

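Per the labels, the authors used HISAT2 to align reads from QUAD muscle to the GRCm39 build. The deposited table holds raw counts per gene for 8 libraries. How reads were counted (tool, annotation, strand) and the HISAT2 version were not given in the sources used here. Counts were analysed in R 4.3.3 with edgeR 4.0.16 across all genes. Low-count filtering by filterByExpr left all genes in, TMM gave the factors, a robust quasi-likelihood model held the group alone, and p-values were adjusted over 12171 genes by the Benjamini-Hochberg method. DESeq2 1.42.0 was an alternative. The steps were tested on simulated data. A positive log2 fold change means a higher level with MSCs, and log2 CPM used a prior count of 2. Every GTPase gene had 167 to 2167 counts in each library.

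Replicates are separate mice, and the replicate numbers are not known to pair them. The 10 genes, the lists and the tests were chosen with earlier results of these data known. The genes named are the 10, the core signal genes, for each list up to 4 genes of smallest p, and the 8 most alike by each centring. Gbp10, Gm43302, Apol6, Ifit3b, Serping1, Ifi30, the MHC class II genes with Cd74, Cd247, Cd28 and the marker genes were named outside that rule. Their values had been seen by then. Because the genome given was of another build than the files', promoters were matched by symbol and credited to RefSeq with their own build, and GENCODE vM21 gave names, lengths and shared sequence. The authors' comparison columns hold fold changes and p-values and were not used. The other groups of the study were not analysed here, and the values of 1 named gene are not reported here. Alternatives were DESeq2, median-of-ratios factors, library totals, no filter, at least 10 counts in every library, the replicate number as a block and each mouse left out in turn. Leaving out the mitochondrially encoded genes, and the libraries PBS 2 and MSCs 4 together, were added after seeing the data.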

Additional observations from a re-analysis of the deposited data

Results flagged for a closer look

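Within groups of 4 mice, the highest or lowest mouse of each named gene was compared with the others by Dixon's test, and 6 of 86 groups had a mouse past its critical value. Chance gives about 1 in 20 groups. Gbp6 measured 39.8 CPM in MSCs 4 against 12.7 to 15.9 CPM in the other D-gal + MSCs mice. Cd274 measured 23.7 CPM in the same mouse against 15.3 to 15.8 CPM, and its log2 fold change without that mouse was 1.30. Jak2 stood apart in both groups, at 51.0 CPM in PBS 4 against 36.0 to 37.8 CPM and at 27.2 CPM in MSCs 3 against 47.4 to 49.8 CPM. In PBS 2, Socs3 measured 13.4 CPM against 3.16 to 4.62 CPM and Icmt, which methylates prenylated proteins, 27.7 CPM against 19.7 to 20.4 CPM.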

How the results depend on the processing

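The 10 GTPase genes kept a positive log2 fold change in 160 of 160 alternative values. Their median was 0.84 to 1.27 with each mouse left out in turn, lowest without MSCs 4, and 0.78 without PBS 2 and MSCs 4 together, where Irgm2 was 0.76. Library totals moved the median of all genes to -0.19, and that of the 10 genes was 0.92 there. Dropping the filter left the same genes in the fit.

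The number of list genes higher at an adjusted p under 0.05 was 0 in edgeR, 12 in DESeq2, 1 with median-of-ratios factors, with at least 10 counts in every library or without mitochondrially encoded genes, and 0 to 2 with each mouse left out, 2 without PBS 1 or MSCs 3. With the replicate block it was 3, and the calls over all genes went from 0 to 78. Deviations of same-numbered mice correlated at -0.0027, 0.156, 0.1 and 0.218, and 1 of 4 D-gal + PBS mice correlated best with its own number. At an unadjusted p under 0.05, the 25 higher list genes became 15 on library totals and 19 to 36 with each mouse left out, and the 4 lower ones 3 to 10, with 10 without MSCs 3 and 0 without the mice named above together.

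Among named genes, 10 of 510 alternative values changed sign. These were on library totals Jak2 -0.095, Irf9 -0.064 and Casp4 -0.065, with each mouse left out Jak1 from -0.20 to 0.0069, Casp1 from -0.10 (without MSCs 1) and -0.01 (without PBS 4) to 0.80, Fntb from -0.17 to 0.064 (without PBS 1) and Icmt from -0.17 to 0.041 (without PBS 2), and without both mice Atg12 0.0077 and Icmt 0.062. The cause was not tested. Standard errors ran to 0.67 for Cxcl10 and 0.57 for Casp1, both low in level, against 0.15 for Gbp2.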
